A study of Mus musculus with 6 samples.

Results

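Actl6b (BAF53b), the actin-related subunit of the neuronal BAF chromatin remodelling complex, was set beside 6 relatives measured on the same testis arrays. These were Actl6a (BAF53a), its paralogue in dividing and most other cells, the testis actin-like genes Actl7a, Actl7b and Actl9, the actin-related gene Actrt2, and Capza3, the sperm form of the actin capping protein alpha subunit. The members were picked by gene name, which gave 9 probes of 7 genes among 41174 probes of 27376 gene names on the array. Actl6b was picked because its signal was dim and higher in Prss55-/- than in wt testis, so its own values are given as a description with no test.

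Total RNA came from the testes of 3 Prss55-/- and 3 wt male mice aged 6 to 8 weeks on a mixed 129Sv/C57BL/6 background, with 1 single-dye array per mouse. Prss55 encodes a serine protease anchored to the membrane of testicular germ cells and sperm, and the knockout was made by homologous recombination in ES cells, with heterozygous parents intercrossed. The mutation was present in the whole animal. Whole testis was used, so that a change in RNA per cell and a change in the number of cells of a type cannot be told apart. The labels name separate mice.

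Actin-like proteins share the fold of actin but differ in what they build. ACTL6A and ACTL6B sit in nuclear complexes that remodel or acetylate chromatin, and neurons exchange the first for the second when they leave the cell cycle. ACTL7A, ACTL7B, ACTL9, ACTRT1 and ACTRT2 are made in spermatids, and several of them, with CAPZA3, belong to the perinuclear theca, the cytoskeletal shell that lies between the acrosome and the sperm nucleus and holds the acrosome in place.

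Actl6b is measured by 2 probes of 60 bases, shown here because they gave different answers. By the array files, whose headers name the build mm9, the probe A_51_P347054 covers chr5:138006979-138007234 and the probe A_52_P184395 covers chr5:138007244-138007794, on the plus strand of the same transcript. The 60 bases of A_52_P184395 are spread over 551 bases of the genome and those of A_51_P347054 over 256 bases, so each crosses at least 1 splice junction. The nearest ends of the probes are 10 bases apart. The third sequence is the probe of Actl6a at chr3:32621551-32621610, which lies within 60 unbroken bases.
A_52_P184395 (Actl6b): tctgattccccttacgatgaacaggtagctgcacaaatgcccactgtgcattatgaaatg
A_51_P347054 (Actl6b): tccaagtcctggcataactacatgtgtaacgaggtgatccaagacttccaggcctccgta
A_52_P231737 (Actl6a): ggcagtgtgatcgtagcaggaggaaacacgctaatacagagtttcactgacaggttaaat

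With A_52_P184395, Actl6b was called well above background by the scanner software in 3 of 3 Prss55-/- and in 0 of 3 wt testes. Its processed signal, the linear brightness of the spot after background correction by the scanner software, was 46.4, 41.8 and 47.8 in Prss55-/- replicates 1, 2 and 3. In wt replicates 1, 2 and 3 it was 13.7, 16.03 and 7.03. The groups did not overlap. The scanner software's own error of these signals was between 7.002 and 9.03, so that the Prss55-/- signals were 4.63 to 5.83 times their error and the wt signals 1.00 to 2.25 times.

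The lowest wt value is not a measurement. The background-subtracted signal of A_52_P184395 in wt replicate 3 was -1.74, below its background, and the scanner software put a stand-in value of 7.03 in its place. Such stand-ins took between 13.1% and 16.8% of the spots on each array. After quantile normalization, the log2 signal was 5.51, 5.39 and 5.40 in Prss55-/- testis (mean 5.43 ± 0.065, SD, n = 3) and 3.999, 3.993 and 2.88 in wt testis (mean 3.62 ± 0.64, SD, n = 3). The measured log2 difference was 1.81, and 1.44 without wt replicate 3.

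Because 0 of 3 wt arrays reached that level, the difference is given only as a rough bound. Each wt array was set to the lowest log2 signal that was well above background on it (5.26, 4.91 and 5.02). Actl6b was then 1.29-fold higher in Prss55-/- testis. This is not a strict minimum, since a spot not called well above background can exceed that signal and the error of the spots is left out. With normexp, another background correction, run with 50 added to each signal, the measured log2 difference was 0.37 in place of 1.81. The added 50 is more than any processed signal of this probe, and by arithmetic it makes log2 differences of dim probes smaller. The pattern of 3 of 3 Prss55-/- arrays and 0 of 3 wt arrays above background was shared by 62 of all 41174 probes (0.151%), and the opposite pattern by 23 (0.0559%); this contrast was used to pick Actl6b, and nothing is read from its place among them. These 62 probes had a median Prss55-/- log2 signal of 5.45 and a median measured difference of 0.71.

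The other Actl6b probe gave no separation. Its processed signal was 34.6, 33.4 and 27.9 in Prss55-/- replicates 1, 2 and 3, and 18.7, 25.9 and 37.3 in wt replicates 1, 2 and 3. The highest of the 6 values was thus that of wt replicate 3, the array on which A_52_P184395 fell below its background. The probe was well above background on 1 of 3 Prss55-/- and 1 of 3 wt arrays and was left out of the fit for that reason. Its log2 signal was 4.90 ± 0.28 (SD, n = 3) in Prss55-/- and 4.80 ± 0.43 (SD, n = 3) in wt testis, and the measured difference of 0.11 was smaller than either spread. Among the 62 probes with the detection pattern of A_52_P184395, 25 belong to a gene with a further probe. For 17 of these 25, a further probe was detected in this sense on each of the 6 arrays and so could not show the pattern, and 0 of the 25 had a second probe that did.

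**Figure D1:**
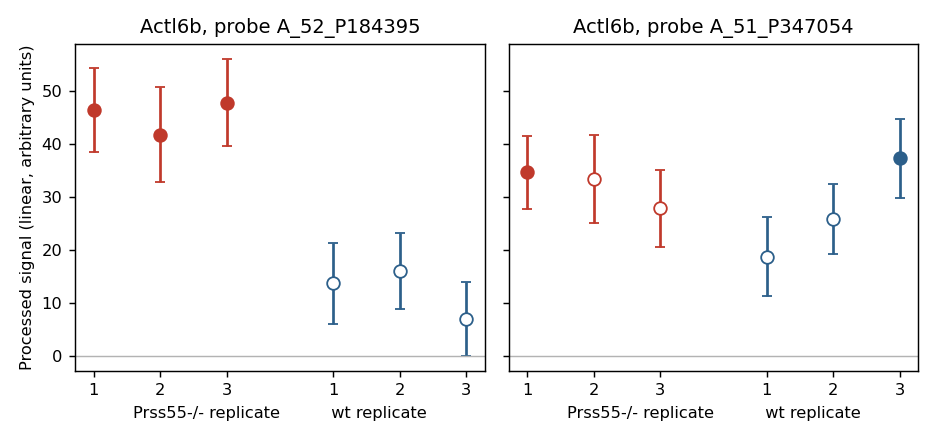
Processed signal (linear, arbitrary units) of the 2 Actl6b probes on each of the 6 arrays, with bars for the scanner software's error; filled points were well above background and open points were not. The probe A_52_P184395 separates Prss55-/- (41.8 to 47.8) from wt (7.03 to 16.03), whereas the signals of A_51_P347054 overlap.

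Actl6a, which fills the place of Actl6b in BAF complexes of other cells and also serves in the INO80 and NuA4 complexes, gave overlapping values in the 2 genotypes. The log2 signal of A_52_P231737 was 13.27, 13.18 and 13.24 in Prss55-/- testis and 13.14, 13.29 and 13.18 in wt testis. The difference was 0.03 (95% interval -0.11 to 0.18, limma adjusted p = 0.79). A second probe, A_52_P220069 at chr3:32608543-32608602, is tied by the array files to a separate cDNA of the gene. It gave 10.15 ± 0.043 (SD, n = 3) in Prss55-/- and 10.17 ± 0.094 (SD, n = 3) in wt testis, a difference of -0.02 (95% interval -0.18 to 0.13, adjusted p = 0.87).

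None of the 6 members other than Actl6b passed the limma adjusted threshold of 0.05, with 0 of 7 probes called. Over all 28606 tested probes, 346 passed (1.21%), 160 higher (0.559%) and 186 lower (0.65%) in Prss55-/- testis. At an unadjusted p under 0.05, 1 of the 7 probes (Actl9) would have passed, against 5465 of the 28606. The methods' t-test with Benjamini-Hochberg adjustment also called 0 of the 7.

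Actl7a, an acrosome-anchoring protein of the theca, had log2 signals of 16.40, 16.37 and 16.33 in Prss55-/- testis and 16.35, 16.37 and 16.50 in wt testis. The highest value was that of wt replicate 3, and the other 2 wt values lay inside the Prss55-/- range. The difference was -0.04 (95% interval -0.18 to 0.10, limma adjusted p = 0.73). Its probe lies at chr4:56757633-56757692 on mm9.

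Actl7b, the partner gene of Actl7a, has its probe 4090 bases away on the other strand, at chr4:56753484-56753543. The log2 signals were 15.53, 15.44 and 15.50 in Prss55-/- testis and 15.34, 15.34 and 15.50 in wt testis. Again wt replicate 3 stood above the other wt arrays and reached into the Prss55-/- range. The difference was 0.10 (95% interval -0.05 to 0.25, limma adjusted p = 0.44).

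Actl9, which binds ACTL7A in the acrosome-nucleus junction, was the member whose values came nearest to a difference. The log2 signals were 14.79, 14.94 and 14.85 in Prss55-/- testis and 15.01, 14.95 and 15.08 in wt testis. Every Prss55-/- value lay below every wt value, but the highest of the first and the lowest of the second were almost equal. The difference was -0.16 (95% interval -0.31 to -0.01, limma adjusted p = 0.25), which did not pass. Groups that do not overlap were found for 26.3% of all tested probes; 12.9% of all tested probes had such groups with the lower values in Prss55-/- testis.

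Actrt2, a theca protein, and Capza3 also gave overlapping groups. For Actrt2 the log2 signals were 17.26, 17.20 and 17.23 in Prss55-/- testis and 17.40, 17.23 and 17.25 in wt testis. The difference of -0.07 (95% interval -0.21 to 0.08, limma adjusted p = 0.59) was -0.01 without wt replicate 1, the highest of the 6. For Capza3 the log2 signals were 16.05, 16.01 and 16.05 in Prss55-/- testis and 16.03, 15.99 and 16.15 in wt testis. Its difference was -0.02 (95% interval -0.16 to 0.12, limma adjusted p = 0.87).

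Put as folds, the 95% intervals of the 5 sperm members ran from 0.81-fold (Actl9) to 1.19-fold (Actl7b) of the wt level, and the largest measured difference among the 7 probes was 0.16. Over all tested probes, 76.9% had a difference under 0.2 in size.

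**Figure D2:**
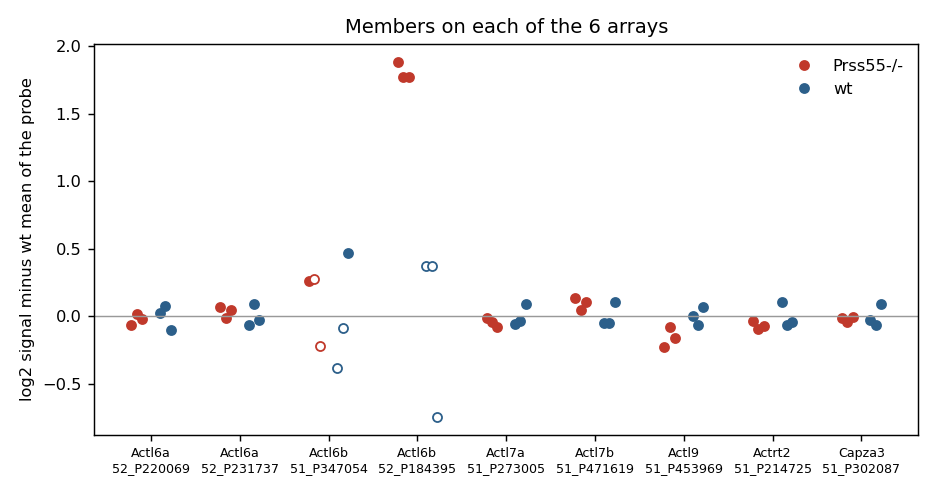
Log2 signal of each member probe on each array minus the mean of the 3 wt arrays of that probe. Filled points were well above background and open points were not. The distance of 1.77 to 1.88 for Actl6b probe A_52_P184395, which was picked for it, is thus from an undetected level, and the rough bound is 0.37. The Prss55-/- points of Actl6a, Actl7a, Actl7b, Actl9, Actrt2 and Capza3 lie within 0.23 of the wt mean.

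Several of the highest values came from wt replicate 3. Of 9 testis actin and capping genes (Actl7a, Actl7b, Actl9, Actl10, Actl11, Actrt1, Actrt2, Actrt3 and Capza3), 6 had their highest value on wt replicate 3. These were the members Actl7a, Actl9 and Capza3 and the other genes Actl11, Actrt1 and Actrt3. Actrt2 was highest on wt replicate 1, Actl7b on Prss55-/- replicate 1 and Actl10 on Prss55-/- replicate 3. Over all tested probes, 18.0% were highest on wt replicate 3, which was the only one of the 6 arrays on its slide. Without wt replicate 3, the difference of Actl7a was 0.0057 in place of -0.04 and that of Capza3 0.03 in place of -0.02, and neither passed the threshold.

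Over the whole list of testis actin-like and actin-related genes, 4 members and 4 others, 0 of 8 genes were called in either direction and the median difference was -0.05. Over all 19181 tested gene names, 1.71% were called (0.798% higher and 0.923% lower in Prss55-/- testis), with a median of -0.0023. Actl10 came nearest to the threshold. It gave 12.40 ± 0.058 (SD, n = 3) in Prss55-/- and 12.11 ± 0.048 (SD, n = 3) in wt testis, a difference of 0.29 that did not pass (limma adjusted p = 0.071), although the groups did not overlap. Actrt3, which is found in the sperm head with profilin Pfn3, differed by -0.25 (adjusted p = 0.36), Actrt1 by -0.14 (adjusted p = 0.35) and Actl11 by 0.03 (adjusted p = 0.88).

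The capping protein and profilin list, which covers factors that cap actin filaments or bind actin monomers, had 0 of 9 genes called and a median difference of -0.0029. Capzb, the beta subunit that pairs with every alpha subunit including CAPZA3, gave lower values on both of its probes, which did not pass. The difference was -0.40 (limma adjusted p = 0.11) on A_52_P428784 and -0.16 (adjusted p = 0.15) on A_51_P135423. On both probes the groups did not overlap, which held for 12.9% of all tested probes with the lower values in Prss55-/- testis. The alpha subunits of somatic cells gave 0.02 (Capza1), 0.17 and -0.05 (2 probes of Capza2). The actin filament end binder Capg gave -0.11. Of the profilins, Pfn1 gave 0.01, Pfn2 0.03 and 0.11, and the testis forms Pfn3 and Pfn4 0.11 and -0.0029, all with adjusted p of 0.31 or more.

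**Figure D3:**
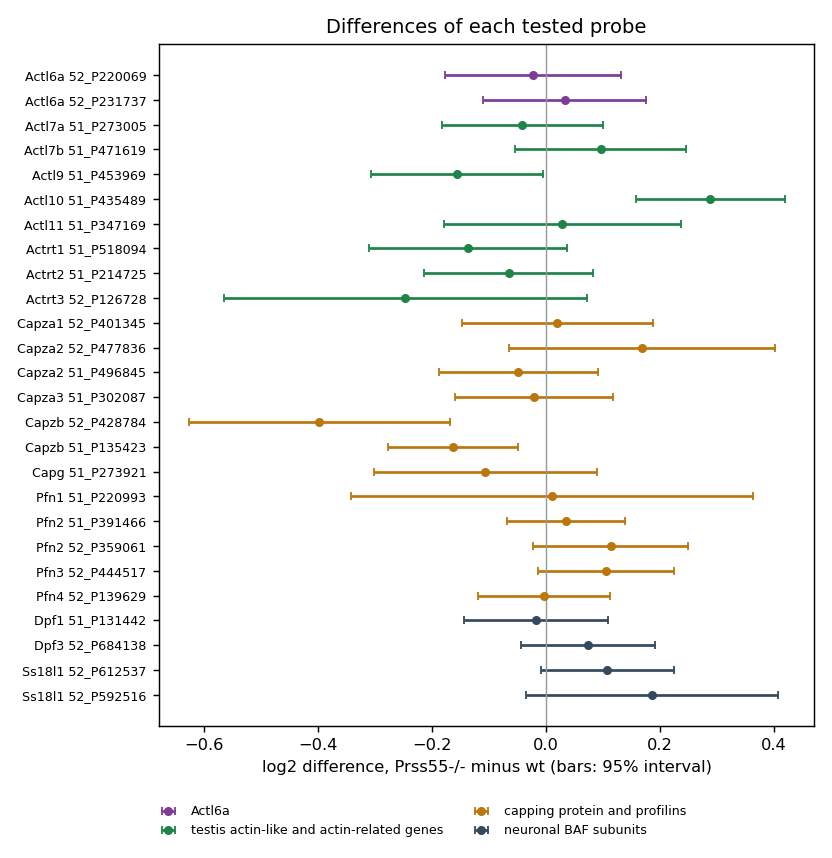
Log2 difference, Prss55-/- minus wt, with its 95% interval for each tested probe of Actl6a, the testis actin-like genes, the capping protein and profilin genes and the neuronal BAF genes. The intervals of Actl9, Actl10 and both Capzb probes leave out 0, yet none passed the threshold adjusted over all tested probes.

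Perinuclear theca and acrosome-anchoring genes other than the actins had 0 of 12 tested genes called, with a median difference of 0.03. Cypt3, a cysteine-rich theca protein and the brightest of the list, gave -0.07 (limma adjusted p = 0.62). The sums of the list's normalized signals over 16 probes ran from 647200 to 659200 in Prss55-/- and from 633600 to 653900 in wt testis, and overlapped. Conventional actins had 0 of 6 tested genes called (median -0.16; the brightest, Actg1, -0.03) and other actin-related proteins, which serve dynactin, ARP2/3 and INO80, 0 of 9 (median -0.03; the brightest, Actr10, -0.03).

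ACTL6A and ACTL6B work as parts of larger chromatin complexes, and the genes of their partners were read on the same arrays. Of the BAF subunits, 0 of 26 tested genes other than Actl6b were called, with a median difference of -0.01. Arid2, the brightest, gave -0.03 on its brightest probe (limma adjusted p = 0.80). The subunits that join ACTL6B in neuronal BAF complexes were all above background on all 6 arrays in both genotypes. Dpf1 gave -0.02 (adjusted p = 0.88), Dpf3 0.07 (adjusted p = 0.45) and Ss18l1 0.11 and 0.19 on its 2 probes (adjusted p = 0.29 and 0.33).

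Of the INO80 and NuA4 subunits, 1 of 27 tested genes was called, higher in Prss55-/- testis, with a median difference of 0.0096 over the list. Over all tested gene names 1.71% were called, 0.798% of them all higher in Prss55-/- testis, and nothing is read from a count of 1. The called gene was Epc2, a scaffold subunit of NuA4. Its probe A_52_P502267 gave 12.47 ± 0.0097 (SD, n = 3) in Prss55-/- and 11.91 ± 0.082 (SD, n = 3) in wt testis, a difference of 0.56 (SE 0.056, limma adjusted p = 0.014). The other Epc2 probe, A_51_P390531, did not follow it, with a difference of -0.0072 (adjusted p = 0.98). The call was lost when Prss55-/- replicate 2 (adjusted p = 0.085), Prss55-/- replicate 3 (0.093) or wt replicate 1 (0.064) was left out, and with the methods' t-test (0.063), while the difference stayed between 0.52 and 0.56 in each of these. Morf4l1, the brightest of the list, gave 0.12 (adjusted p = 0.34) on its brightest probe.

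Actl6b is best known from neurons, and nerve markers were checked beside it. Of 22 neuron and nerve markers, 13 had a tested probe and 0 were called, with a median difference of -0.04. The markers Snap25, Stmn2, Stmn3, Nefm, Gap43, Dcx, Prph, Scg2 and Th had no probe well above background on all 3 arrays of either genotype. Other neuron markers of the list, namely Rbfox3, Syt1, Nefl, Elavl3, Elavl4 and Tubb3, had a probe well above background on all 3 arrays of both genotypes. The sum of the normalized signals over the 39 probes of the list ran from 16780 to 17230 in Prss55-/- and from 16910 to 17540 in wt testis. Chgb, Chga and Tubb3 made up 77.0% to 78.5% of that sum and 15 of the 39 probes were above background on 0 arrays, so the sum says little of the dim markers; without those 3 genes, left out after their values were seen, it was 3700 to 3833 and 3755 to 4027. Chgb, a granin of secretory granules and the brightest of the list, gave 0.05 (limma adjusted p = 0.77).

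Markers of the main testis cells showed no called gene. Elongating spermatid markers, led by Tnp1, gave 0 of 9 and a median of -0.0083, round spermatid markers, led by Spert, 0 of 9 and 0.14, spermatocyte markers, led by Ldhc, 0 of 8 and 0.0085, and Sertoli cell markers, led by Amhr2, 0 of 8 and -0.0084. Leydig cell markers had 0 of 7 called but a median of -0.56, and their summed signal ran from 37840 to 62050 in Prss55-/- and from 59350 to 69280 in wt testis; their brightest gene was Cyp17a1 (-0.38, limma adjusted p = 0.23). Of 9 epididymis markers 3 were tested and 0 called, with a median of 0.24 and 2 of the 3 higher in Prss55-/- testis, while Rnase10 gave -2.91 (adjusted p = 0.092). The summed signal of the list was 284 to 435 in Prss55-/- and 559 to 666 in wt testis, and without Rnase10, a comparison added after the values were seen, it was 241 to 278 in Prss55-/- and 172 to 235 in wt testis. The part of Leydig or epididymal RNA in the Actl6b signal was not tested.

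**Figure D4:**
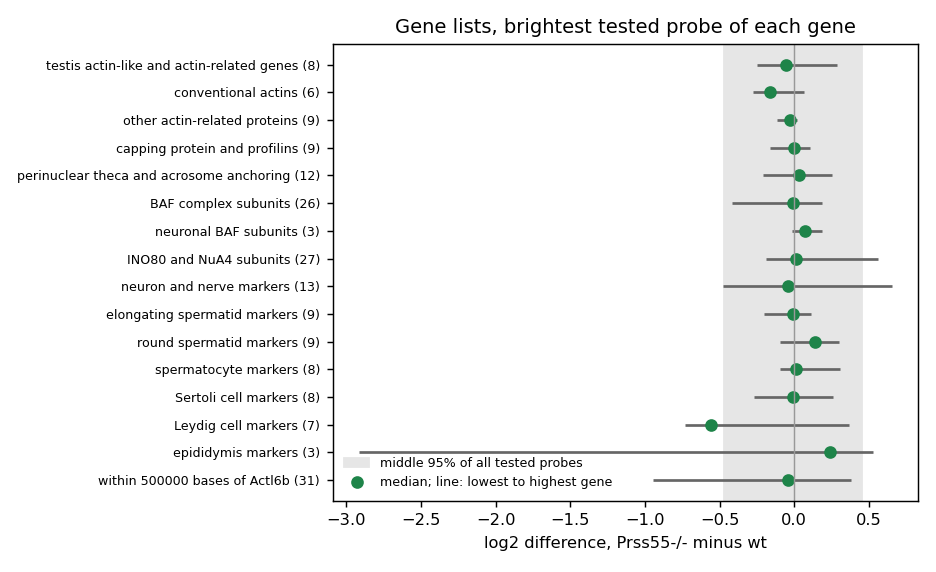
Lowest, median and highest log2 difference, Prss55-/- minus wt, over the genes of each list (number of tested genes without Actl6b in brackets), each gene by its brightest tested probe; the grey band, from -0.47 to 0.45, holds the middle 95% of all tested probes. The medians of the actin, theca and chromatin lists lie between -0.16 and 0.07, and the median of the Leydig cell markers lies at -0.56.

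The neighbours of Actl6b on chromosome 5 had no called gene. Within 500000 bases of its probes, the array files place 38 other gene names, of which 31 were tested and 0 were called, with a median difference of -0.04. Those named here run from Ap1s1 through Trim56, Muc3, Ache, Ufsp1, Srrt, Trip6, Slc12a9, Ephb4, Zan, Epo, Pop7, Gigyf1 and Gnb2 on one side, and from Tfr2 through Mospd3, Pcolce, Fbxo24, Lrch4, Sap25, Irs3, Agfg2, Nyap1, Tsc22d4, Ppp1r35, Mepce, Zcwpw1, Pilra, Pilrb1, Pilrb2, Cyp3a13, Gjc3, Azgp1, Smok3a and Smok3b on the other, beside 2 entries without an established gene name. The nearest tested gene on each side gave -0.08 (Gnb2, limma adjusted p = 0.51) and -0.20 (Tfr2, adjusted p = 0.34). Zan, the sperm zonadhesin that binds the zona pellucida, gave 0.17 (adjusted p = 0.24) and Azgp1 the lowest value, -0.95 (adjusted p = 0.13).

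**Figure D5:**
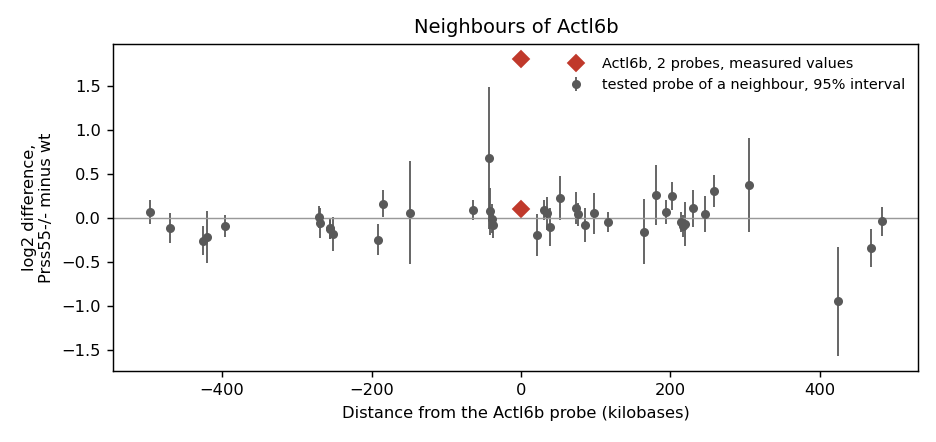
Log2 difference, Prss55-/- minus wt, of each tested probe within 500000 bases of Actl6b against its distance from the Actl6b probe in kilobases, with 95% intervals. The diamonds are the measured values of the 2 Actl6b probes, 1.81 (a rough bound of 0.37) and 0.11. No neighbour passed the adjusted threshold.

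Other genes followed the 6 values of A_52_P184395 closely. The 5 gene symbols with the highest Pearson r over the 6 arrays were Cyp2c37 (r = 0.9963), Tcte3 (0.9960), Il15 (0.9924), Trpc7 (0.9907) and Trim69 (0.9894). The measured differences between Prss55-/- and wt ran from 0.14 (Trim69) to 1.01 (Cyp2c37) for the 4 that were above background on all 6 arrays. Trpc7, a cation channel gene, was above background on 3 of 3 Prss55-/- and 0 of 3 wt arrays. It was 2.33-fold higher in Prss55-/- testis by the same rough bound as for Actl6b. After the mean of each genotype was subtracted, the nearest were Ccdc39, Dctn4, Zfp423, Suz12 and Zbtb46, with r between 0.9990 and 0.9999. With 6 arrays, 2 genotypes and 28606 probes to choose from, these values describe the arrays, and the stand-in value of wt replicate 3 weighs on each of them.

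The members also differ in the sequence around their start sites. RefSeq windows from 250 bases before to 50 bases after the start (GRCm38.p6) were found for 6 of the 7 members, without Capza3. The window of Actl6a holds 21 CpG and that of Actl6b 23, more than in 75.2% and 78.5% of all 32851 windows. Those of Actl7b, Actl7a, Actrt2 and Actl9 hold 4, 2, 2 and 0, against a median of 7. The windows of Actl7a, Actl7b and Actl9 share the 8 letters TGATGTCA on either strand (reverse complement TGACATCA). The letters were chosen after these windows were read, and they occur in 3.62% of all windows. The palindromic cAMP response element TGACGTCA, searched in the same way, is in 1.79% of all windows and in 0 of the 6 member windows. The 30 bases around each match are shown with the 8 letters in capitals; the match starts 40 bases before the start site in Actl7a, 36 in Actl7b and 60 in Actl9. A match is a description of the letters only.
Actl7a, chr4:56743371-56743400, plus strand: gtcacaatcagTGATGTCActgttgggcag
Actl7b, chr4:56741443-56741472, minus strand: accattcctggTGACATCAcaacccaagtg
Actl9, chr17:33432828-33432857, plus strand: ggcaagcacaaTGATGTCAcagaccactgt

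Prss55 itself was lower in the Prss55-/- libraries on its 1 probe, with log2 signals of 15.08, 14.95 and 14.93 against 15.87, 15.77 and 16.01 in wt (difference -0.90, limma adjusted p = 0.010). Whether that probe lies in the deleted part is not given in the sources used here. The paper reports no Prss55 RNA by RT-PCR in the knockout, and no protein by Western blot or immunofluorescence. On the 6 arrays, 69.5% to 72.9% of the spots that are not controls were well above background and 0 were saturated. The 3 Prss55-/- arrays shared a slide and the wt arrays lay on 2 other slides, replicates 1 and 2 on one and replicate 3 alone on the other, so that slide and genotype cannot be told apart. With 3 arrays a genotype the precision is limited by their number, and no exact permutation test of 3 mice against 3 can go below p = 0.1.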

How the data were processed

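The authors deposited the scanner output of 6 single-dye arrays, 1 per mouse, made with Feature Extraction 10.7.3.1 per the file headers. The processed signal deposited by the authors and used here is a linear intensity, which the scanner software had background-corrected within each array. Their deposited log2 table, which is quantile-normalized, served as an alternative. Control spots and outlier spots were left out, signals under 1 set to 1, log2 signals quantile-normalized, and spots of a probe averaged. A probe entered the fit if 1 genotype or more had it well above background throughout its 3 arrays, which 28606 did. The fit used limma 3.58.1 (R 4.3.3; two-sided moderated test from eBayes after lmFit), and Benjamini-Hochberg adjustment ran over all fitted probes. Signals of different probes were not read as relative amounts of RNA, but they were summed within lists and ranked to name the brightest gene or probe. The median list difference takes the brightest tested probe of a gene. A gene not found by symbol was looked for by RefSeq accession, then by synonym.

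The members and the gene lists were chosen with earlier results of these data known. Named were every member probe, Prss55, every gene of the testis actin-like, capping and neuronal BAF lists, from other lists the called genes and the brightest, the neighbours, and the 5 genes most like Actl6b. Rnase10 and the nerve markers other than the brightest were named after their values were seen. Some genes that this rule covers are not reported here. On simulated data with the same number of arrays, 132 of 150 probes changed at least 2-fold were found, with 12 false calls among 28606 probes. Of all 200 changed probes, smaller changes included, 162 were found. The simulated noise was independent for each probe and held no slide effect, so these counts do not cover the overlap of slide and genotype. Alternatives covered normalization, background, filter, test, slide, replicate number and left-out arrays. Plots were made with Python 3.11.15 and matplotlib 3.10.9.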

Additional observations from a re-analysis of the deposited data

How the results depend on the processing

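Actl6b was given no test, and none of the other members passed the adjusted threshold under any of the alternatives run. Values near 0 changed sign: Actl6a probe A_52_P220069 gave 0.032 with normexp, and Capza3 0.0087 with scaling to the 75th percentile. With each array left out in turn, the difference ran from -0.075 to 0.016 for that Actl6a probe, 0.0008 to 0.08 for A_52_P231737, -0.069 to 0.0057 for Actl7a, 0.07 to 0.15 for Actl7b, -0.19 to -0.12 for Actl9, -0.10 to -0.01 for Actrt2 and -0.054 to 0.026 for Capza3. The measured difference of Actl6b probe A_52_P184395 ran from 1.44 to 2.00 and was 0.37 with normexp, which added 50 to each signal. That of A_51_P347054 ran from -0.087 to 0.34 and turned below 0 without wt replicate 1. The cause of the changes of sign was not tested.

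Over all probes, 346 passed, but 140 with no filter, where more probes were tested, 87 with the methods' t-test, and 38 to 855 with an array left out, of which the lowest was without Prss55-/- replicate 3 and the highest without Prss55-/- replicate 1. The number of list genes past the threshold was 1, and 3 with normexp, 0 with the methods' t-test and 0 to 5 with an array left out. Arrays of the same replicate number did not deviate together (r = -0.05, -0.02 and -0.11). The paper speaks of 3 pairs of mice, but the labels do not say whether the replicate number marks a pair. So few arrays cannot show that the mice were unpaired. With the replicate number as a block, 13 probes, 0 members and 0 list genes passed, and Epc2 had a limma adjusted p of 0.12. With the slide as a random block 287 probes passed. Signal over background limits Actl6b: neither probe exceeded 5.83 times its error on any array, where the bright probe of Actrt2 stood at 10.0 times.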
